A study of Amaranthus powellii with 13 samples.

Results

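In leaves of green pigweed (Amaranthus powellii) cut 6 h after MCPA, 85 gene models stood at less than 0.5 times their untreated level in every treated plant, whichever population the plant came from. The 85 members were chosen by their measured levels in these 12 libraries. Each had at least 5 CPM in all 6 untreated plants, an untreated mean under 1000 CPM, and a highest treated level under 0.5 times its lowest untreated level. CPM is the usual library-scaled count, with the count of a gene model divided by the size of its library after adjustment of that size by the trimmed mean of M-values (TMM). The members made up 0.357% of the 23820 gene models and 0.829% of the 10248 that met both limits on the untreated level. The reverse rule, with every treated plant more than 2-fold above every untreated plant, was met by 247 gene models. Since the levels with and without MCPA chose the members, their response to MCPA is given as a description, with no test.

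Each library was the leaf RNA of a single plant, with 3 plants in each of 4 groups. RT plants belonged to the MCPA-resistant population 501 and ST plants to the susceptible population 511, and both received MCPA at 1225 g a.e. per ha. RU plants of 501 and SU plants of 511 were left untreated. Population 501 was grown from seed of plants that had survived MCPA in repeated rounds of selection, and 511 from plants of an untreated site, so each condition rests on 1 population. The plants were kept until survival could be scored, and the most representative ones were sequenced. Reads were counted on gene models of a related species, smooth pigweed (A. hybridus), and total counts were 22629698 to 29999982 per library. TMM factors were 0.843 to 1.29, the highest being that of plant ST S13. Over all 16304 gene models that passed the filter on low counts, plants ST S13 and SU S116 stood apart, with a highest correlation of log2 CPM with any other library of 0.884 and 0.914, against 0.950 to 0.981 for the other plants, so results are also given without them.

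MCPA is a synthetic auxin. Auxins bind the TIR1/AFB receptors, which mark the Aux/IAA repressors for degradation and thereby free auxin response factors to act on their target genes. In leaves of broad-leaved plants, synthetic auxins are known for a fast rise of auxin-responsive genes and of ethylene and abscisic acid production, followed by a loss of growth and photosynthesis. No names accompany the identifiers in the count tables, so the members are given by identifier, with no function, and leaf markers could not be checked. The study prints an identifier for ACS, the enzyme that makes the ethylene precursor, and Ah.12g051890 is the one gene model that begins with it. ACS was not a member. It had 0.596, 1.01 and 0.850 CPM in RT and 24.9, 5.08 and 8.45 CPM in ST, against 5.97, 5.89 and 7.33 CPM in RU and 20.9, 15.8 and 40.7 CPM in SU. Every RT plant was below every RU plant. ST S13, which stood apart over all gene models, lay within the SU range and above all RU plants. The other ST plants, at 5.08 and 8.45 CPM, lay below every SU plant. The overlap of ST with SU thus rests on ST S13 alone, and no difference between the populations is read from it.

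The members covered a wide range of levels. Their treated means ran between 0.532 and 195 CPM with a median of 12.1 CPM, and their untreated means between 6.20 and 762 CPM with a median of 53.2 CPM. Without MCPA, 29 members averaged 100 CPM or more and 16 averaged under 20 CPM. The untreated mean was 2.39 to 37.5 times the treated mean, with a median of 4.23 and quartiles of 3.64 and 5.30. Of the 85 members, 32 were lower by less than 4-fold, 46 by 4-fold to 8-fold and 7 by 8-fold or more. Members with a high untreated level tended to have the smaller fold (Spearman's rho = -0.32 over 85 members measured in the same libraries). The rule used the same values, so no trait of the response is read from this. All 85 passed the filter on low counts, and none had a count of 0 in any library. In bulk leaf RNA, fewer cells of a type and less RNA per cell cannot be told apart, and CPM shows only a gene model's share of its library.

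**Figure D1:**
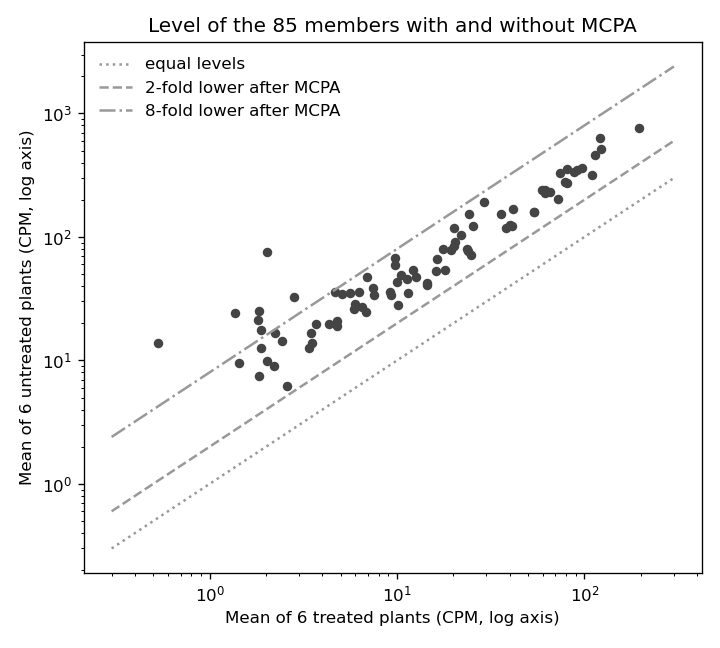
Mean CPM of each of the 85 members in the 6 treated plants (x axis, log scale) against its mean in the 6 untreated plants (y axis, log scale), 1 point per member. Diagonal lines mark equal levels, a 2-fold and an 8-fold lower level after MCPA. Every point lies above the 2-fold line and 7 lie above the 8-fold line.

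The member lowered most, Ah.02g111270, had 1.63, 1.46 and 2.65 CPM in RT and 1.09, 4.21 and 1.09 CPM in ST, against 67.5, 106 and 53.4 CPM in RU and 75.9, 111 and 42.0 CPM in SU. Its untreated mean was 39.4 times the treated mean in 501 and 35.8 times in 511, and its lowest untreated plant was 9.98 times its highest treated plant, the widest gap of any member. The next by mean log2 ratio, Ah.10g033600, had 0.159, 0.916 and 0.136 CPM in RT and 1.22, 0.327 and 0.435 CPM in ST, against 17.96, 9.01 and 5.31 CPM in RU and 7.86, 23.2 and 20.1 CPM in SU, a fold of 26.2. It was the one member with a treated library under 10 counts, so its treated level is the least precise of the list. The counts behind it were 4, 20 and 4 in RT and 37, 9 and 12 in ST, against 445, 248 and 134 in RU and 185, 512 and 646 in SU.

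The other 5 members lowered 8-fold or more, chosen after their values were seen, were Ah.01g022220, Ah.16g104770, Ah.02g125130, Ah.09g236010 and Ah.08g211240. All 7 averaged 0.532 to 2.83 CPM with MCPA and 13.9 to 75.9 CPM without it, and 5 of them lay under the first quartile of the untreated means of the list, 26.2 CPM. A large mean fold did not always go with a wide gap between plants, since the smallest gap among the 7 was 2.03-fold.

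The most abundant member without MCPA was Ah.02g130140. It had 137, 168 and 242 CPM in RT and 229, 183 and 209 CPM in ST, against 824, 655 and 733 CPM in RU and 773, 1018 and 570 CPM in SU, a fold of 3.91. It remained at over 100 CPM in every treated plant. The next, Ah.12g054710, had 136, 121 and 151 CPM in RT and 66.8, 99.7 and 149 CPM in ST, against 646, 635 and 650 CPM in RU and 710, 631 and 549 CPM in SU, a fold of 5.28. Its highest treated plant was 2.26 times its lowest, and its highest untreated plant 1.29 times its lowest. The 10 most abundant members held 44.6% of the summed untreated level of the 85.

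**Figure D2:**
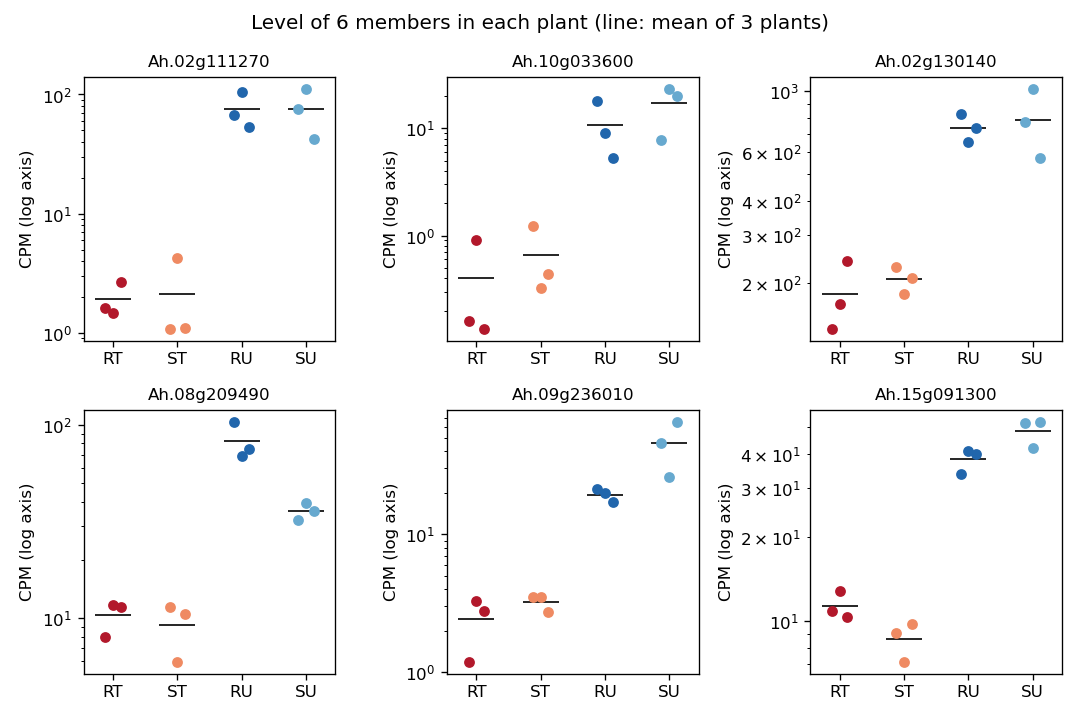
CPM (log axis) of 6 members in each of the 12 plants, by group in the order RT, ST, RU and SU. Points are plants and lines are means of 3 plants. In each panel all treated plants lie below all untreated plants, with the widest gap in Ah.02g111270. RU lies wholly above SU in Ah.08g209490 and wholly below SU in Ah.09g236010 and Ah.15g091300.

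The members just inside and just outside the rule were close to each other. The nearest inside was Ah.02g111340, with a highest treated level of 23.7 CPM against a lowest untreated level of 47.3 CPM, and the nearest outside was Ah.15g096540, with 140 CPM against 280 CPM. Of the members, 32 had a gap of 2.0 to 2.2, and 51 other gene models that met the untreated limits had a gap of 1.8 to 2.0, so the list has no natural edge. At the level limit, Ah.10g033600 was inside with a lowest untreated plant of 5.31 CPM and Ah.08g211540 outside with 4.52 CPM. A further 21 gene models fell short of the 5 CPM limit alone. The limit on the untreated mean alone left out 2, Ah.16g103070 with 3420 CPM and Ah.15g094930 with 7997 CPM, both named after their values were seen.

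Summed over the 85 members, the level was 2478, 2306 and 2798 CPM in RT and 1723, 2575 and 2931 CPM in ST, against 9946, 10314 and 10132 CPM in RU and 10249, 9606 and 9212 CPM in SU. Group means were 2527 ± 250 CPM in RT and 2410 ± 621 CPM in ST, against 10131 ± 184 CPM in RU and 9689 ± 523 CPM in SU (SD, n = 3 each). The untreated mean was thus 4.01 times the treated mean in 501 and 4.02 times in 511. The members took 0.222% to 0.312% of all counts in treated plants and 0.839% to 1.0% in untreated plants.

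Members varied more from plant to plant with MCPA than without it. The highest treated plant was 1.25 to 13.3 times the lowest, with a median of 2.48, and 54 members differed more than 2-fold among treated plants. The highest untreated plant was 1.16 to 7.36 times the lowest, with a median of 1.49, and 17 members differed more than 2-fold. The rule itself allows this, because it limits the highest treated plant and sets no lower bound. The same spread over all gene models was not computed, so nothing particular to the members is read from it.

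Plant ST S13 often had the lowest treated level. It was the lowest of the 6 treated plants in 47 of 85 members, where an even share would be 14.2, and its median member was 0.46 lower on the log2 scale than the median of the treated plants. It also had the highest TMM factor and stood apart over all gene models, and the part of either in its low values was not tested. The share of all gene models in which ST S13 was the lowest treated plant was not counted. ST S112 lay at the other end, as the highest treated plant in 27 members. Among untreated plants SU S14 and SU S116 were each the lowest in 28 members, and SU S116 was also the highest in 19. Without ST S13 and SU S116 the summed level averaged 2753 CPM in ST against 9927 CPM in SU, a fold of 3.61.

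**Figure D3:**
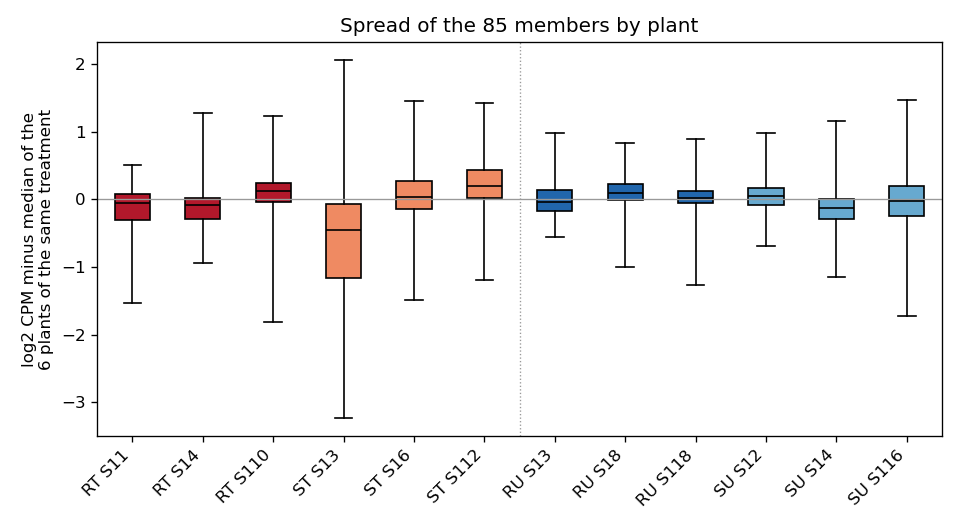
Difference of log2 CPM of each of the 85 members (y axis) in each plant (x axis) from that member's median over the 6 plants of the same treatment. Boxes show the median and quartiles, and whiskers the lowest and highest member. The ST S13 box is the lowest and widest, with a median at -0.46. The medians of the untreated plants are near 0, between -0.13 in SU S14 and 0.09 in RU S18.

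The median fold differed little between the populations with all plants included. Their RU mean was 2.18 to 39.4 times the RT mean, with a median of 4.29, and their SU mean was 2.57 to 35.8 times the ST mean, with a median of 4.03. The fold was larger in 501 for 51 of 85 members. In the fit described below, 52.2% of all gene models tested had the lower log2 fold change in 501. Without ST S13 and SU S116 the median fold in 511 was 3.34 and 68 members had the larger fold in 501. The balance between the populations among members thus rests partly on those plants. The share over all gene models was not computed without them. Across the 85 members the log2 folds of the populations had a Pearson's r of 0.83 and a Spearman's rho of 0.72, as a description of members that share libraries and were chosen for being lower in both.

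**Figure D4:**
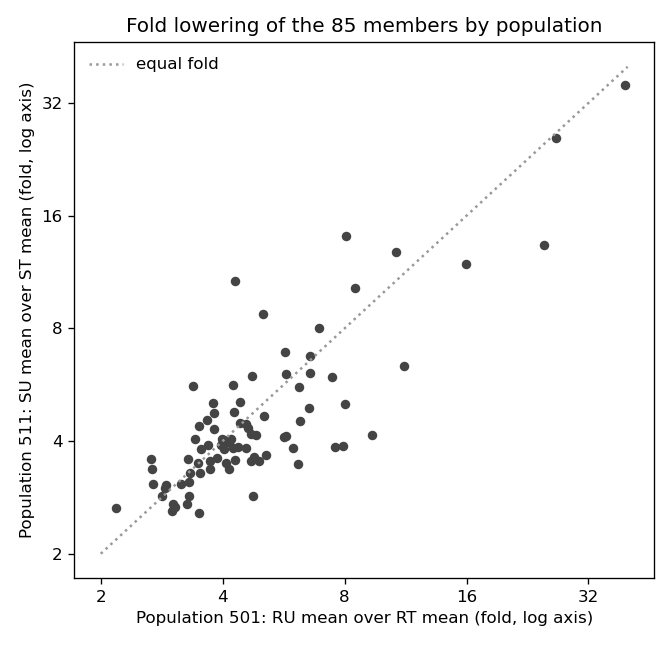
Fold by which each of the 85 members was lower with MCPA in population 501 (RU mean over RT mean, x axis, log scale) and in population 511 (SU mean over ST mean, y axis, log scale), with a dotted line at equal fold. Points scatter on both sides of the line, 51 of 85 with the larger fold in 501, and Ah.02g111270 is the point at the upper right.

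Differential expression was fitted with edgeR's quasi-likelihood test on all 16304 gene models that passed the filter, and calls needed a Benjamini-Hochberg adjusted p under 0.05 together with a change of more than 2 on the log2 scale. In RT vs RU, 52 of 85 members were called lower, where 1.9% of all gene models tested were. In ST vs SU, 43 of 85 were called lower, where 1.14% of all were, and 28 were without ST S13. These contrasts chose the members, and the counts are given only to place the list on the scale of the study's limits. The calls met in both populations in 35 members, and 25 members were called in neither because their log2 fold change did not reach -2. With no fold limit all 85 were called lower in both contrasts, where 14.1% of all gene models were in RT vs RU and 10.1% in ST vs SU. The median log2 fold change of the members was -2.10 in RT vs RU and -2.01 in ST vs SU, against -0.01 and 0.02 over all gene models tested.

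To ask whether gene models lowered in one population were also lowered in plants that had no part in choosing them, the rule was applied to a single population and the chosen gene models were then tested in the 6 libraries of the other. Applied to RT and RU alone, it chose 478 gene models. In ST vs SU, 471 of these 478 had a negative log2 fold change, where 49.4% of all gene models did, with a median of -1.40 and quartiles of -1.85 and -1.12, against a median of 0.01 over all 15769 gene models tested. Every ST plant was below every SU plant in 364 of the 478, or 76.2%, against 16.7% of all gene models and 20.1% of those at the untreated limits in 511. At the adjusted p and the fold limit of edgeR's test, 31 of the 478 were called lower in 511, or 6.49%, against 0.317% of all. Among gene models at the untreated limits in 511, 30 of 434 were called, against 0.391%. With the adjusted p alone, 147 were lower (30.8%, against 2.23% of all) and 0 were higher, where 3.34% of all were. The count of 31 depended on single plants, and was 2 without SU S12, 6 without SU S14, 10 without ST S16 and 19 without SU S116, and 55 without ST S13 and SU S116 together. With any 1 plant left out, gene models with every ST plant below every SU plant numbered 368 to 490. The 368 were of 478 without SU S12, and the 490 were of 666 without RU S13. Leaving out an RT or RU plant changes only the list, so the share over all gene models stays at 16.7%. Leaving out an ST or SU plant eases that count by construction, and the share over all gene models was not computed without those plants.

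Applied to ST and SU alone, the rule chose 153 gene models. In RT vs RU, 152 of the 153 had a negative log2 fold change, where 49.8% of all gene models did, with a median of -1.85 and quartiles of -2.24 and -1.38, against a median of 0.00 over all 15733 gene models tested. Every RT plant was below every RU plant in 143 of the 153, or 93.5%, against 29.2% of all gene models and 33.1% of those at the untreated limits in 501. At the adjusted p and the fold limit, 63 of the 153 were called lower in 501 by edgeR, or 41.2%, against 2.14% of all. Among gene models at the untreated limits in 501, 56 of 140 were called, against 1.59%. With the adjusted p alone, 142 were lower (92.8%, against 22.9% of all) and 0 were higher, where 24.1% of all were. Leaving out SU S116 lengthened the list to 327 gene models, of which 98 were called, against the same 2.14% of all. Leaving out ST S112 lengthened the list to 346.

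**Figure D5:**
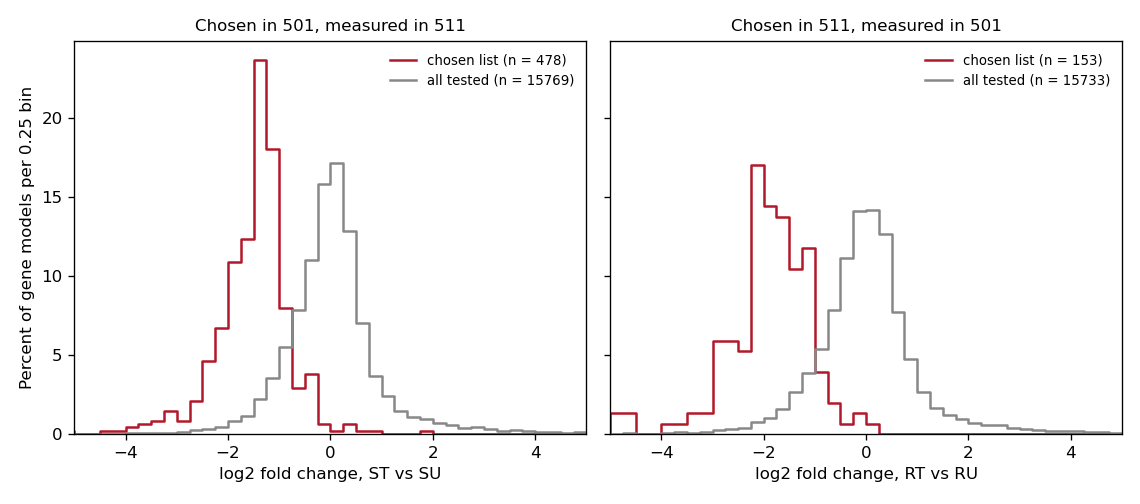
Distribution of log2 fold changes in plants of the population that did not choose the list, as percent of gene models per 0.25 bin (y axis), for the chosen list (red) and all gene models tested (grey). Left, 478 gene models chosen in 501 and measured in ST vs SU. Right, 153 chosen in 511 and measured in RT vs RU. The red medians are -1.40 and -1.85 and the grey medians are 0.01 and 0.00, and values outside the drawn axis are not shown.

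The lists from the single populations shared 104 gene models, which is 21.8% of the 501 list and 68% of the 511 list. With all plants included the 501 list was the longer by far, and most of it missed the rule in 511. The length of the 511 list depended on single plants, and was 346 without ST S112 and 327 without SU S116. It was 407 without ST S13 and SU S116 together. The 501 list held 517 to 666 gene models with 1 of its plants left out. Leaving plants out lengthens a list by construction, and no difference between the populations is read from the lengths. Of the 478, 330 missed the rule in 511 through the gap between treated and untreated plants alone, and 44 were under the level limit there. Of the 153, 36 missed it in 501 through the gap alone, 12 were under the level limit and 1 was over the limit on the untreated mean. Of the 85 members, 84 were in the 501 list and 83 in the 511 list, and 22 gene models in both lists were not members. A gap and a level limit met over all plants are met within each population, apart from TMM factors computed anew. The presence of the members in both lists was thus largely fixed by the rule.

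The rule did not use the population of a plant, but it used the same 12 values of each member, and a gap between all treated and all untreated plants limits how far the populations can lie apart. Differences between populations are therefore given as a description. The p-values place members within the fit of all gene models and are no independent test, and nothing is read from shares of members below those of all gene models. In untreated plants no member was called in RU vs SU, where 0.104% of all gene models were called higher and 0.0368% lower. The smallest adjusted p of a member was 0.115 by edgeR. With an unadjusted p under 0.05 and no fold limit, 6 members passed, or 7.06%, against 9.96% of all gene models, and with DESeq2's adjusted p and no fold limit 2 passed, or 2.35%, against 2.46% of all. Every RU plant was above every SU plant in 11 members, or 12.9%, against 11.6% of all. Every RU plant was below every SU plant in 5 members, or 5.88%, against 11.6% of all. These 5, listed because they are few, were Ah.01g017890, Ah.06g189450, Ah.08g211240, Ah.09g236010 and Ah.15g091300. Member log2 fold changes in RU vs SU ran between -1.24 and 1.21, with a median of 0.04 and a median standard error of 0.29. Their median absolute value was 0.20, against 0.23 over all gene models and 0.17 over those at the untreated limits.

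The smallest p in RU vs SU belonged to Ah.08g209490. It had 103, 69.0 and 75.03 CPM in RU, against 32.2, 39.5 and 35.8 CPM in SU, and 7.98, 11.7 and 11.5 CPM in RT, against 11.4, 5.95 and 10.4 CPM in ST. The untreated populations did not overlap and the treated ones did. Its log2 fold change in RU vs SU was 1.20 ± 0.25 (SE), with an adjusted p of 0.115 by edgeR and 0.00103 by DESeq2. Its untreated mean was 7.94 times the treated mean in 501 and 3.87 times in 511. The second was Ah.09g236010, with 21.2, 19.8 and 17.2 CPM in RU, against 46.0, 26.0 and 65.0 CPM in SU, and 1.192, 3.25 and 2.79 CPM in RT, against 3.52, 3.48 and 2.72 CPM in ST. Its log2 fold change in RU vs SU was -1.24 ± 0.36 (SE), with an adjusted p of 0.267 by edgeR and 0.0455 by DESeq2. Its highest plant was SU S116, and without SU S116 the change was -0.89, with an edgeR adjusted p of 0.581. Without ST S13 and SU S116 together it was -0.90, with an edgeR adjusted p of 0.304.

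In treated plants no member was called in RT vs ST, where 0.0613% of all gene models were called higher and 0.123% lower. The smallest adjusted p of a member was 0.211 by edgeR. With an unadjusted p under 0.05 and no fold limit, 7 members passed, or 8.24%, against 12.2% of all, and 1 passed DESeq2's adjusted p with no fold limit, or 1.18%, against 2.61% of all. Every RT plant was above every ST plant in 3 members, Ah.01g017890, Ah.15g091300 and Ah.16g102450, or 3.53%, against 7.49% of all. Every RT plant was below every ST plant in 5 members, Ah.05g177080, Ah.06g192360, Ah.10g035540, Ah.12g052500 and Ah.16g101750, or 5.88%, against 7.84% of all. Member log2 fold changes ran between -1.46 and 0.66 with a median of -0.03. Their median absolute value was 0.19, against 0.26 over all gene models and 0.20 over those at the untreated limits.

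Ah.06g192360 had the smallest p in RT vs ST, with 2.42, 3.39 and 3.13 CPM in RT against 7.14, 6.02 and 3.77 CPM in ST, and 20.2, 16.9 and 16.1 CPM in RU against 18.5, 21.5 and 24.8 CPM in SU. Its log2 fold change in RT vs ST was -0.93 ± 0.24 (SE), with an adjusted p of 0.211 by edgeR and 0.0288 by DESeq2. Without ST S112, the ST plant nearest to RT, it was -1.14, with an edgeR adjusted p of 0.0400, under the p limit and short of the fold limit. No other single plant left out brought the edgeR adjusted p under 0.05. It was -0.79 with an adjusted p of 0.673 without RT S11, and -0.72 with 0.322 without ST S13. Without ST S13 and SU S116 together it was -0.72 with 0.210. Ah.16g101750 had 5.16, 6.18 and 5.61 CPM in RT against 8.09, 7.87 and 7.94 CPM in ST. Its difference on the log2 scale in RT vs ST was -0.50 ± 0.15 (SE), with an adjusted p of 0.264 by edgeR. The treated populations did not overlap in either of these members.

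The size of the response was compared between populations by the interaction, the change of RT over RU less that of ST over SU, which has no fold limit. No member was called, where 0.0123% of all gene models were. The smallest adjusted p of a member was 0.396 by edgeR. With an unadjusted p under 0.05, 5 members passed, or 5.88%, against 6.13% of all, and 0 passed DESeq2's adjusted p, where 1.11% of all did. The 5 were Ah.16g101750, Ah.15g091300, Ah.08g209490, Ah.01g017890 and Ah.10g035540. The interaction of the members ran between -1.17 and 1.32 on the log2 scale with a median of -0.09, against -0.02 over all gene models. Its median standard error was 0.42.

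Ah.16g101750, lowered more in 501, had the smallest p of the interaction. Its untreated plants overlapped, with 29.8, 26.3 and 24.4 CPM in RU against 21.2, 20.2 and 26.7 CPM in SU, and the interaction was -0.74 ± 0.20 (SE) with an adjusted p of 0.396 by edgeR. Ah.15g091300 lay the other way, with 10.9, 12.8 and 10.3 CPM in RT against 9.05, 7.15 and 9.72 CPM in ST, and 33.7, 41.0 and 39.9 CPM in RU against 51.3, 41.9 and 51.9 CPM in SU. Its populations did not overlap with MCPA or without it, and the interaction was 0.73 ± 0.22 (SE) with an adjusted p of 0.495 by edgeR.

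The identifiers carry a number after the prefix, and members were found under each of the numbers 01 to 16 but not among the 67 gene models at the untreated limits in Ah.00. Their share of the gene models at those limits was, within 01 to 16, lowest in Ah.04, at 0.123%, and highest in Ah.02 and Ah.06, at 1.38%, with 13 members in Ah.02 and 10 in Ah.01. Only 2 pairs of members had neighbouring identifiers, and both are named here after their values were seen. In the pair Ah.10g033910 and Ah.10g033920 the second was the higher in all 12 plants, by 1.04 to 1.73 times. Ah.10g033910 had 6.67, 3.43 and 6.49 CPM in RT and 1.38, 6.97 and 10.8 CPM in ST, against 23.8, 31.0 and 29.1 CPM in RU and 31.9, 24.7 and 32.8 CPM in SU. Ah.10g033920 had 7.55, 5.95 and 8.70 CPM in RT and 2.205, 7.26 and 13.8 CPM in ST, against 33.2, 36.2 and 31.9 CPM in RU and 33.0, 29.2 and 41.5 CPM in SU. How reads shared by similar gene models were counted is not given, so the levels of neighbouring copies are uncertain.

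In the other pair, Ah.01g022220 had 1.03, 1.79 and 0.374 CPM in RT and 0.329, 1.67 and 3.01 CPM in ST, against 38.9, 21.7 and 18.6 CPM in RU and 16.01, 44.96 and 6.11 CPM in SU. Ah.01g022230 had 12.3, 10.4 and 6.46 CPM in RT and 4.44, 14.5 and 10.6 CPM in ST, against 45.5, 33.6 and 67.7 CPM in RU and 90.3, 66.8 and 103 CPM in SU. SU S116 was the lowest untreated plant for the first and the highest for the second. Among the 166 gene models next to a member that were not members, 138 were tested. Of these, 3 were called lower in RT vs RU (2.17%, against 1.9% of all) and 1 in ST vs SU (0.725%, against 1.14% of all), with median log2 fold changes of -0.22 and -0.13.

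The same libraries were also counted on transcripts assembled from long reads of 511 leaf tissue, and the rule was applied to that count as well. It was met by 261 of 37218 transcripts, whose untreated mean was 2.47 to 35.6 times the treated mean with a median of 3.99. The median transcript stood at 6.38 CPM with MCPA and 26.2 CPM without it. Applied to single populations with all plants included, the rule chose 1126 transcripts in 501 and 422 in 511. The 501 list was again the longer, and its length without single plants was not examined. The files do not link transcripts to gene models, so which of the 85 members are among the 261 could not be determined, and both counts come from the same plants.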

How the data were processed

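Leaf RNA of 12 plants (RT, ST, RU and SU, 3 each) was sequenced as stranded mRNA. The authors trimmed reads with fastp 0.23.4 and used STAR 2.7.4a to align them to the genome of smooth pigweed, and deposited a raw count for each gene model. What counted these reads, and how it treated strand and multi-mapping, is not given in the sources used. The second deposited count table (CD-HIT 4.8.1, Bowtie 2 2.5.2, samtools 1.19, featureCounts of Subread 2.0.6, TransDecoder 5.7.1) repeats a transcript's count for each of its reading frames and was read per transcript. The long-read library was not analysed here.

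The counts went through edgeR 4.0.16 (R 4.3.3): TMM on rows with any count for CPM, then filterByExpr (minimum count 10, minimum total 15), TMM and robust glmQLFit over all 12 libraries, or over the 6 of a population for lists chosen in the other, with Benjamini-Hochberg adjustment. DESeq2 1.42.0, RLE, other filters and leaving out each plant were alternatives. The test was run on simulated counts with 200 changed genes.

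The members, lists and comparisons were chosen with earlier results of these data known. Named members were the 2 lowered most by mean log2 ratio, the 2 most abundant without MCPA, the 2 with the smallest p in each comparison between populations, those nearest the limits, and ACS. SAUR36 was left out because the identifier printed for it begins several identifiers of the table. Others were named after their values were seen.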

Additional observations from a re-analysis of the deposited data

How the results depend on the processing

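The rule chose the same 85 gene models with RLE in place of TMM, and 34 with no normalization factors. It chose 11 at a ratio of 1/3, 1460 with every treated plant merely below every untreated plant, 156 without ST S13 and SU S116, and 87 to 140 with 1 plant left out (140 without SU S116). Of the 261 de novo transcripts, these became 131, 20, 3464, 475 and 266 to 436. Members called lower in RT vs RU (52) were 85 with no fold limit and 48 to 53 with 1 plant left out. In ST vs SU (43) they were 85, 28 to 56, and 27 without ST S13 and SU S116. Between populations 0 members were called under every planned setting with the adjusted p and fold limit, and the interaction gave 5 at an unadjusted p.

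The 501 list called in ST vs SU (31, where 0.317% of all gene models were) gave 78 with all 12 libraries fitted, where 1.14% of all were. It gave 147 with no fold limit, where 2.23% of all were. It gave 81 with DESeq2, 55 without ST S13 and SU S116, and 2 to 46 with 1 plant left out. Its gene models with every ST plant below every SU plant ranged from 368 of 478 to 490 of 666 with 1 plant left out. The 511 list called in RT vs RU (63, where 2.14% of all gene models were) gave 142 with no fold limit, where 22.9% of all were. It gave 115 of 407 without ST S13 and SU S116, and 57 to 98 with 1 plant left out. Its gene models with every RT plant below every RU plant (143 of 153) numbered 354 of 407 without ST S13 and SU S116. With 1 plant left out they ranged from 144 of 153 to 326 of 346, the latter without ST S112. Leaving out plants of the population that chose a list left the tested plants and their shares over all gene models unchanged. For the 511 list these shares were 2.14% called and 29.2% with every treated plant below every untreated plant. For the 501 list they were 0.317% and 16.7%. With a plant of the tested population left out, and with DESeq2, the shares over all gene models were not computed. Leaving a plant out of the population that chose a list lengthens the list by construction, since fewer plants must meet the rule. Other causes were not tested. The leave-out settings for plants wholly below and for named members were chosen after seeing the data.

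With library totals in place of TMM, the median of all gene models moved to 0.12 in RT vs RU, 0.23 in ST vs SU, -0.13 in RU vs SU and -0.23 in RT vs ST (log2). Set against TMM, that is a shift of 0.14 in RT vs RU and 0.23 in ST vs SU. No paired analysis was possible because the groups compared share fewer than 2 plant numbers. The p-values measure the spread between 3 plants a group that were chosen for their survival score, and each condition is 1 population, so population and resistance cannot be told apart.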
